A study of Mus musculus with 107 samples.

Results

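The genes described here encode cell junction proteins of the epidermis: the connexins Gjb2, Gjb6, Gja1 and Gjb5, the claudins Cldn1, Cldn4 and Cldn7, and occludin (Ocln). They were chosen by name, as every probe set whose annotated gene symbol is 1 of these 8. The 8 names were chosen with earlier results of these data known. Over both arrays 18193 genes had a probe set annotated with their symbol alone. The 8 genes had 17 probe sets, out of 22626 on array A and 22511 on array B, with Ocln the only gene also found on array B. A filter on low signal (a mean of at least 100 over the ears of an array, after each array had been scaled to a trimmed mean of 500) kept 15 of them, which stand for 7 genes. The only probe set of Cldn7 (1448393_at) had a mean scaled signal of 56.0 and Cldn1 probe set 1438850_at one of 22.9, so neither was tested.

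RNA of mouse ear skin was measured 24 h after 0.08 mg of sulfur mustard (bis-(2-chloroethyl) sulfide, a blistering agent that alkylates DNA and protein) in 5 µL of methylene chloride had been put on the inside of the right ear, while the left ear received methylene chloride alone. In some animals a drug dissolved in ethanol had been applied 15 min earlier: 6.25 mg of dimercaprol, a dithiol chelator, 1.34 mg of indomethacin, a cyclooxygenase inhibitor, or 0.6 mg of octylhomovanillamide, a vanilloid related to capsaicin. Both arrays held 21 methylene chloride ears, 5 ears with mustard alone, 6 with dimercaprol before mustard, 6 with indomethacin before mustard and 5 with octylhomovanillamide before mustard. Further animals, numbered on their own and measured on array A only, received no mustard: 5 naive ears of 3 animals, 3 ears with ethanol, 4 with dimercaprol, 4 with indomethacin and 5 with octylhomovanillamide. The ethanol ears are the left ears of animals 507, 515 and 520. Their right ears are in the dimercaprol, indomethacin and octylhomovanillamide groups, in that order. Each drug group thus shares an animal with the ethanol group, and all drug ears without mustard are right ears. The methylene chloride ears are the left ears of animals whose right ear received mustard, with or without a drug. The labels do not say whether the drug of these animals was put on the right ear alone, so that some methylene chloride ears may also have received it. The ears with mustard alone are labelled without ethanol, so that a drug and its ethanol cannot be told apart against them. Strain, sex and age are not given in the labels, and each sample is an 8 mm biopsy that holds both faces of the ear.

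Connexins assemble into channels that dock between neighbouring cells as gap junctions, through which ions and small molecules pass. Gja1 is the broadly expressed epidermal connexin, Gjb5 is found in stratified epithelia, and Gjb2 and Gjb6 are low in the resting skin between hair follicles and well known to rise in wounded or hyperproliferative epidermis. Claudins and occludin are membrane proteins of the tight junctions of the granular layer, where claudin 1 is needed to keep water in the body.

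The bases just before the start site are shown for 4 of the genes that moved with mustard, Gjb2 and Gjb6, which rose and are neighbours, and Gjb5 and Cldn1, which fell. They were picked after the signals had been seen. In the order of protein-coding genes in RefSeq, mouse chromosome 14 runs Gja3, Gjb2, Gjb6, Cryl1. Gjb5 lies on chromosome 4, Cldn1 next to Cldn16 on chromosome 16, and Ocln next to Marveld2 on chromosome 13. All windows hold 250 bases of RefSeq sequence (GRCm38.p6), lie on the minus strand and are written 5′ to 3′ up to the base before the start: chr14:57104703-57104952 for Gjb2, chr14:57133612-57133861 for Gjb6, chr4:127358165-127358414 for Gjb5 and chr16:26371840-26372089 for Cldn1. Capitals mark letters that match a searched motif on either strand.
Gjb2: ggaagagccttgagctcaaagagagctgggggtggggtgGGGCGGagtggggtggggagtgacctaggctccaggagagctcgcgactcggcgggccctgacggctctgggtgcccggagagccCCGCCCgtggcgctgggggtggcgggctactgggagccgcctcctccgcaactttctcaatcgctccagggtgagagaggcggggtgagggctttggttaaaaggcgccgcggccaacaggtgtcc
Gjb6: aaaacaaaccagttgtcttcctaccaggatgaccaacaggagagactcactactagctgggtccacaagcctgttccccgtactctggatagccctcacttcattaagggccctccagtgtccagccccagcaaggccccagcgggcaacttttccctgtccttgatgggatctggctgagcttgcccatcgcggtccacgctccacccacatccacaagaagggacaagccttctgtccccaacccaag
Gjb5: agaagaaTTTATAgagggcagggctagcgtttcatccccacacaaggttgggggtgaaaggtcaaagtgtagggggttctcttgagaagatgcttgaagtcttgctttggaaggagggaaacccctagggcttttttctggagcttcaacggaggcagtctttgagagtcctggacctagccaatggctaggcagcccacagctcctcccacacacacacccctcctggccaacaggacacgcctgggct
Cldn1: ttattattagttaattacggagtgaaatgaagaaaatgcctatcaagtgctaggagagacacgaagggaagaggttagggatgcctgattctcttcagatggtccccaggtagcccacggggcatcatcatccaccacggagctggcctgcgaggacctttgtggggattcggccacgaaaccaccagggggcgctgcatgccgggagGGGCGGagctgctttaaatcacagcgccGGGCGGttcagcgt
The motifs searched, on both strands, were the AP-1 motif TGANTCA, the GC box GGGCGG, the TATA box TATAAA and the grainyhead motif AACCGGTT. Of 32851 such windows of 27025 mouse genes, 6.75% held the AP-1 letters, 32.7% the GC box, 12.4% the TATA letters and 0.116% the grainyhead letters. No match overlapped another in the windows of the 8 genes. Gjb2 held 2 GC boxes, 211 and 126 bases before the start, and Cldn1 held 2, at 42 and 14 bases. The neighbours Gjb2 and Gjb6 thus differ in these windows, since Gjb6 held none of the 4 motifs, and their GC content was 69.2% and 56.8%. Gjb5 held the TATA letters once, in reverse, 243 bases before the start. The AP-1 letters were found in 2 of the 8 genes: once in Gja1, as TGAGTCA 19 bases before the start, and in Cldn4 as TGACTCA at 240 and 158 bases. No member held the grainyhead letters. These matches describe the sequence and are not binding sites.

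The ears carried the RNA of skin: 5 of 5 wound keratinocyte, 7 of 7 basal and 8 of 8 suprabasal keratinocyte markers passed the filter, beside markers of fibroblasts, endothelium, muscle and cartilage. Before scaling, the trimmed mean of array A ran from 66.3 to 267 over all ears, from 66.3 to 137 in mustard ears and from 111 to 221 in methylene chloride ears. The log2 ratio of the 3′ to the 5′ Gapdh control probe sets, which grows when RNA is short or degraded, was 0.30 ± 0.38 (SD, n = 5) in mustard ears and -0.06 ± 0.13 (SD, n = 21) in methylene chloride ears. The mustard ears of animals 5 and 37 set this apart, at 0.63 and 0.78, and results that lean on them are given without them as well. All signals below are scaled intensities without unit, levels of different genes are not compared, and differences are on the scale of log2 (scaled signal plus 16) ± SE, with a p adjusted over all probe sets kept on the array (limma, threshold 0.05). In whole biopsies, fewer cells of a type and less RNA per cell cannot be told apart.

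Mustard alone split the group. Gjb2, Gjb6 and Gja1 rose and Gjb5, Cldn1 and Ocln fell against methylene chloride ears, with folds from 1.51 for Gja1 to 5.75 for Gjb6, and Cldn4 did not pass the test. Of the 14 probe sets of these genes tested on array A, 6 were higher and 4 lower, where 42.8% of all probe sets on that array were called (19.3% higher and 23.4% lower), so that many genes of any kind were called. This balance rests on the scaling: over the 15 probe sets of both arrays 6 were higher and 5 lower, and without scaling 2 were higher and 7 lower. Their median difference was 0.24, and that of all probe sets on array A was -0.00. The connexin and tight junction signals of single ears are drawn in the plot of signals by treatment group.

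**Figure D1:**
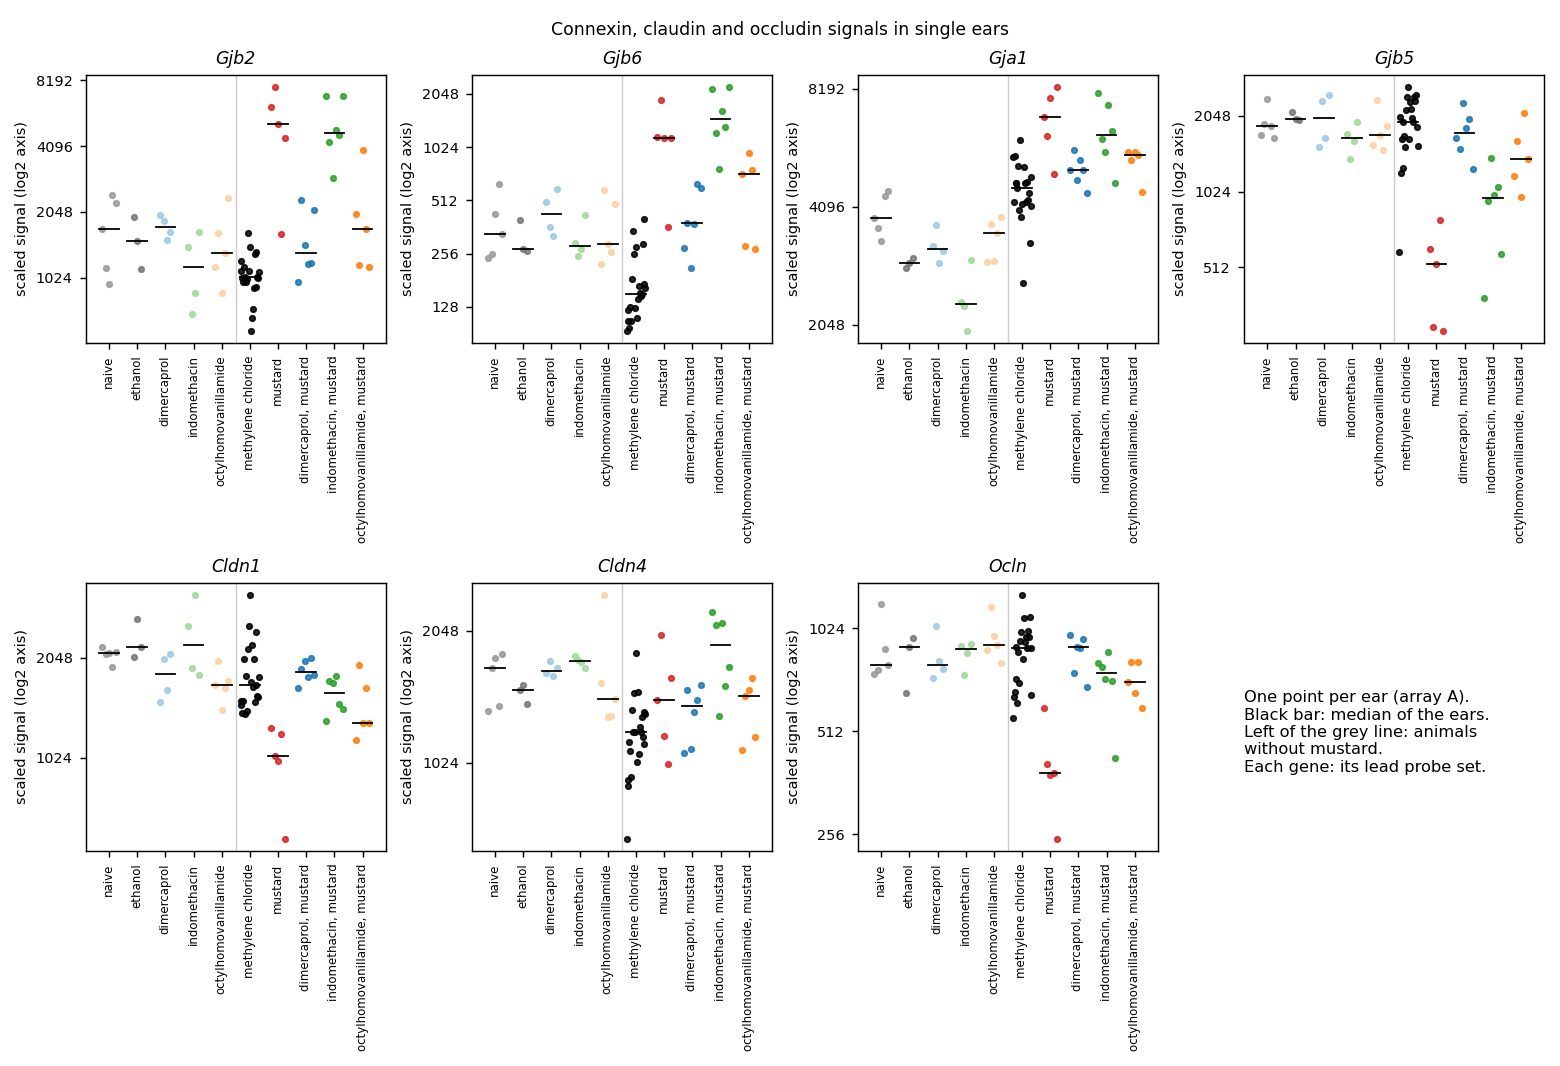
Scaled array A signal (log2 axis) of the lead probe set of 7 genes in every ear, by treatment group, with animals without mustard to the left of the grey line and black bars for group medians. In mustard ears Gjb2 (1630 to 7655) and Gjb6 (362 to 1899) sit mostly above the methylene chloride ears, and Gjb5, Cldn1 and Ocln sit mostly or fully below them.

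Gjb2, the gap junction protein whose human mutations cause deafness and skin disease, gave 588 to 1649 (median 1028) in methylene chloride ears. In the mustard ears of animals 1, 3, 5, 36 and 37 its signals were 6153, 7655, 5196, 1630 and 4474. The ear of animal 36 lay within the range of the methylene chloride ears and the other 4 ears lay above all 21. The means were 5022 ± 2239 (SD, n = 5) and 1062 ± 245 (SD, n = 21), a difference of 2.09 ± 0.24 or 4.27-fold (adjusted p = 3.82e-09).

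Gjb6, its neighbour on chromosome 14 and another deafness gene, was high in the same ears. Its methylene chloride ears gave 94.1 to 401 (median 152), and its mustard ears 1169, 1899, 1155, 362 and 1152 in the same order of animals. Again the ear of animal 36 lay within the methylene chloride range and the other 4 above it. Gjb6 was 2.52 ± 0.30 higher, or 5.75-fold (adjusted p = 9.58e-09), the largest difference among the 7 genes.

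Gja1, the connexin of most cell types of skin, rose less. Its lead probe set gave 2609 to 6059 (median 4583) in methylene chloride ears and 6916, 6186, 7743, 4970 and 8283 in mustard ears, with 4 of 5 above every methylene chloride ear. The difference was 0.59 ± 0.12 or 1.51-fold (adjusted p = 8.54e-05). The 6 probe sets of Gja1 did not all move: 4 were called higher, by 0.45 to 0.59, while 1415801_at gave -0.06 ± 0.20 (adjusted p = 0.842) and 1438973_x_at 0.21 ± 0.19 (adjusted p = 0.401). The rise of Gja1 also rests on the scaling, since without it the lead probe set gave -0.04 (adjusted p = 0.838), while the median of all array A probe sets moved by -0.52 and 2.53% of all called probe sets were higher, in place of 45.2%.

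Gjb5 was the only connexin of the 4 to fall. Its methylene chloride ears gave 589.5 to 2664 (median 1935) and its mustard ears 606, 298, 531, 792 and 288. The lowest methylene chloride ear, the left ear of animal 1 at 589.5, reached into the mustard range, so that 3 of 5 mustard ears lay below all methylene chloride ears. The mean was 503 ± 214 (SD, n = 5) against 1900.4 ± 501 (SD, n = 21), a fall of 3.80-fold (-1.93 ± 0.24, adjusted p = 1.73e-08).

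**Figure D2:**
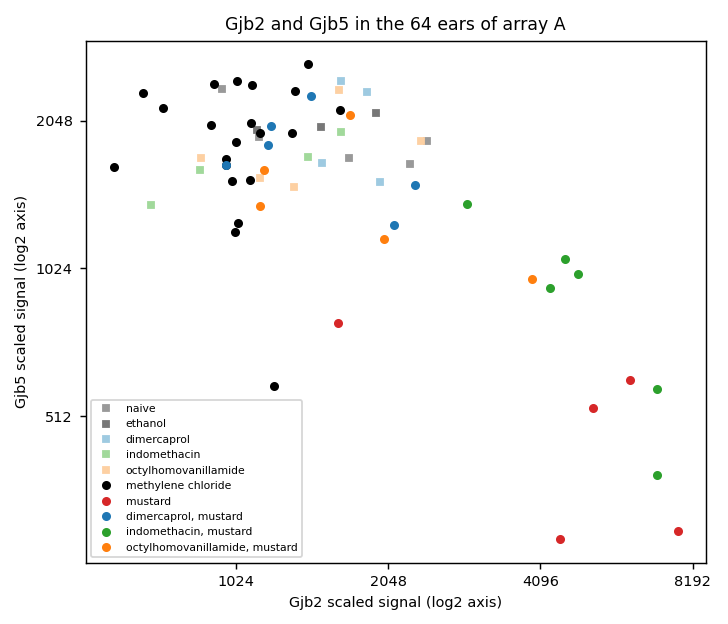
Scaled signals of Gjb2 (horizontal) and Gjb5 (vertical), both on log2 axes, with 1 point per ear of array A and colours for the treatment groups. The mustard ears lie at high Gjb2 and low Gjb5, from 1630 and 792 to 7655 and 298, and 1 methylene chloride ear combines low Gjb5 (589.5) with low Gjb2.

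Of the 7 genes, Cldn1 alone gave groups without overlap, though the share of all probe sets without overlap was not computed here or below. Its lead probe set gave 1386 to 3166 (median 1702) in methylene chloride ears and 1262, 1038, 1002, 1209 and 582 in mustard ears, all 5 below. The fall was 1.81-fold (-0.86 ± 0.14, adjusted p = 6.27e-06). Probe set 1450014_at of Cldn1 also fell (-0.73 ± 0.18, adjusted p = 0.000738), and 1438851_x_at, a dim probe set with a median of 97.0 in methylene chloride ears, gave -0.04 (adjusted p = 0.88).

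Ocln, a membrane protein of the junction strands, fell on both arrays. On array A it gave 559 to 1280 (median 898) in methylene chloride ears and 600, 411, 382, 387 and 248 in mustard ears, of which 4 lay below all methylene chloride ears. The fall was 2.13-fold (-1.09 ± 0.15, adjusted p = 1.58e-07). On array B, where 26% of all probe sets were called (13.1% lower) and their median difference was 0.14, probe set 1440220_at gave 807 to 1152 in mustard ears and 990 to 2012 in methylene chloride ears. These ranges overlapped, and the difference was -0.49 ± 0.13 (adjusted p = 0.00302).

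Cldn4, a claudin of the upper epidermis, gave 687 to 1825 (median 1201) in methylene chloride ears and 1422, 2002, 1179, 1017 and 1598 in mustard ears. Only the ear of animal 3 lay above the methylene chloride range. The difference was 0.26 ± 0.14 (95% interval -0.03 to 0.54, adjusted p = 0.137). It passed the threshold without the ear of animal 36 (0.37, adjusted p = 0.038) and turned to -0.36 without scaling.

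**Figure D3:**
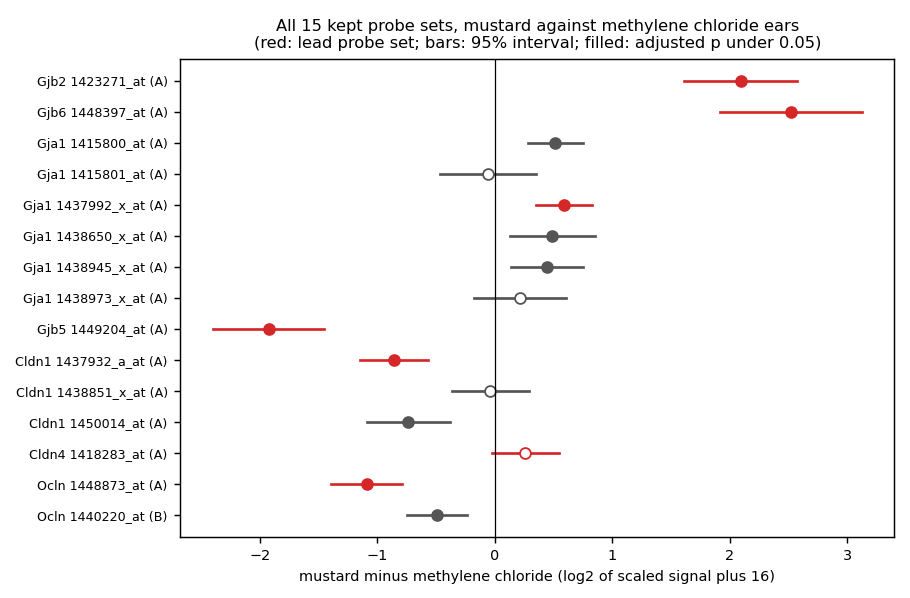
Difference between mustard and methylene chloride ears (log2 of scaled signal plus 16, with 95% intervals) for all 15 probe sets kept, the lead probe set of each gene in red and those with an adjusted p under 0.05 filled. Gjb2 and Gjb6 lie above 2, Gjb5 near -1.93, and the probe sets of Gja1 and Cldn1 spread from -0.06 to 0.59 and from -0.86 to -0.04.

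The right and left ears of an animal share its number, and 17 animals had both ears measured, 4 of them with mustard alone. With the animal as a block, Gjb2, Gjb6, Gja1, Gjb5, Cldn1 and Ocln stayed past the threshold, and Cldn4 came to pass it (0.56, adjusted p = 0.0249). The 6 genes also kept their calls without the ears of animals 5 and 37, where Gjb2 was 2.02 higher (adjusted p = 5.29e-06), Gjb5 -1.76 (adjusted p = 2.27e-05) and Ocln -0.87 (adjusted p = 0.000296).

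Other junction genes were called in both directions in the same ears, where 42.8% of all array A and 26% of all array B probe sets were called. Of 19 other connexins and pannexins 5 were measured: Panx1, a channel of the plasma membrane, was higher (0.39, adjusted p = 0.00721), Gjc1 (-0.60, adjusted p = 0.0136) and Panx3 (-0.75, adjusted p = 0.00135) were lower, and the chromosome 14 neighbour Gja3 did not pass the test (-0.67, adjusted p = 0.245). Of 22 other claudins 11 were measured, and 4 fell and none rose, with a median of 0.03: Cldn8 (-1.57, adjusted p = 7.17e-06), Cldn23 (-1.36, adjusted p = 3.43e-05), Cldn5 and Cldn10.

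Of 25 genes for other membrane and scaffold proteins of tight junctions 22 were measured, with 3 higher, 7 lower and a median of -0.10. The shares of all probe sets called, 42.8% on array A and 26% on array B, apply here too. Cgn, the scaffold cingulin, fell by 1.07 on the log2 scale (adjusted p = 4.11e-06), and Marveld2, the tricellular junction protein whose gene adjoins Ocln, fell by 0.84 (adjusted p = 2.09e-06). Magi3, F11r and Crb3 were higher, Magi3 by 0.68 (adjusted p = 0.0114). Tjp1, which encodes the scaffold ZO-1 and is counted among the 22, gave -0.05 ± 0.09 (adjusted p = 0.67). Of 12 adherens junction genes 1 rose, the P-cadherin gene Cdh3 (0.63, adjusted p = 3.35e-05), and 3 fell, among them the E-cadherin gene Cdh1 (-0.41, adjusted p = 0.0043). Of 9 regulators and proteases of the barrier 1 rose, the matriptase gene St14 (0.74, adjusted p = 2.26e-09), and 4 fell: the prostasin gene Prss8, and the transcription factor genes Grhl1, Trp63 (also on the basal list) and Klf4.

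The keratinocyte markers in these ears moved too, beside 42.8% of all array A probe sets. All 5 wound keratinocyte markers (Krt6a, Krt6b, Krt16, Krt17 and Sprr1b) were higher, with a median difference of 4.51, and their mean log2 level ran from 12.0 to 14.1 in mustard ears and from 8.03 to 10.7 in methylene chloride ears. Of the 7 basal markers 2 were higher and 3 lower, with levels of 11.8 to 12.4 and 12.2 to 12.7. Of the 8 suprabasal markers 2 were higher and 2 lower, and the level of the 5 measured on array A ran from 12.9 to 13.6 and from 12.5 to 13.5. Of fibroblast, endothelium and muscle markers limma called 0 (1, 1 and 0 at an unadjusted p under 0.05), and 2 of 5 measured neutrophil and macrophage markers were higher. Of 6 hair follicle markers Lhx2 (-0.88, adjusted p = 1.49e-05) and Msx2 (-0.54, adjusted p = 0.0242) were lower, with a median of -0.43, and of 2 adipocyte markers Fabp4 was lower (-1.09, adjusted p = 0.00161). Of 4 melanocyte markers Mlana was higher (1.89 on array B, adjusted p = 1.09e-07), and of 3 sebaceous markers Scd1 was higher (0.27) and Elovl3 lower (-0.30). Of 5 cartilage markers limma called 0 (1 unadjusted). The part of these cell types in the junction results was not tested.

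In ears given dimercaprol before mustard, Gjb5, Cldn1 and Ocln were higher than with mustard alone. Gjb2, Gjb6 and, in its lead probe set only, Gja1 were lower, and Cldn4 did not pass the test. That made 4 of 14 probe sets higher and 3 lower, where 26.8% of all array A probe sets were called (15.6% higher and 11.2% lower). Their median difference was -0.08 against -0.00 for all. With the animal as a block, which compares right ears less their left ears over 4 animals a group, only Gjb5 stayed past the threshold (1.78, adjusted p = 0.0377). How many of all probe sets were called in that fit is not given.

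Gjb5 gave 1257 to 2302 (median 1746) in the 6 dimercaprol ears, all above the 5 mustard ears (288 to 792). It was 1.85 ± 0.29 higher, or 3.61-fold (adjusted p = 1.78e-05). Cldn1 gave 1658 to 2044 (median 1858), with no overlap with the mustard ears (0.91 ± 0.18, adjusted p = 0.000196; 0.85 with the block, adjusted p = 0.0773). Ocln gave 690 to 980 (median 899), again above every mustard ear (1.10 ± 0.18, adjusted p = 3.43e-05; 1.15 with the block, adjusted p = 0.0543). These 3 are the member probe sets whose 2 groups did not overlap, and the share of all probe sets without overlap was not computed. On array B, Ocln did not pass the test (0.40 ± 0.15, adjusted p = 0.0667), where 16.5% of all probe sets were called.

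The lead probe sets of the connexins that mustard had raised were lower in dimercaprol ears, with overlap. Gjb2 gave 982 to 2319 (median 1324), and 4 of 6 ears lay below every mustard ear (-1.60 ± 0.29, adjusted p = 9.32e-05; -1.49 with the block, adjusted p = 0.108). Gjb6 gave 211 to 634 (median 379), and 2 of 6 ears lay below every mustard ear (-1.36 ± 0.36, adjusted p = 0.00447; -1.42 with the block, adjusted p = 0.284). Gja1 gave 4432 to 5702 (median 5083; -0.41 ± 0.14, adjusted p = 0.0316; -0.28 with the block, adjusted p = 0.405). No probe set of Gja1 other than this lead was called. Its probe sets 1415801_at and 1438650_x_at went the other way, and the rest were lower without a call. The mean log2 levels of these 2 were 9.83 and 10.63 in dimercaprol ears and 9.36 and 10.55 in mustard ears. Cldn4 gave 1078 to 1542 (-0.09 ± 0.17, adjusted p = 0.743).

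Part of these calls leaned on single mustard ears. The call of Gja1 was lost without any 1 of the mustard ears 1, 5 or 37 or the dimercaprol ears 9 or 12 (adjusted p = 0.0538 to 0.124). Without the ears of animals 5 and 37 together, 4 probe sets were called in place of 7, with Gjb6 at -1.24 (adjusted p = 0.0623) and Gja1 at -0.24 (adjusted p = 0.396). The share of all probe sets called without these ears is not given. Over both arrays 13 probe sets were higher and 1 lower without scaling, in place of 4 and 3. Without scaling, which moved the median of all array A probe sets by 0.76 and the share of higher ones among all called from 58.1% to 99.5%, Gjb2 stayed lower (-0.68, adjusted p = 0.0322), Gjb6 was no longer called (-0.45, adjusted p = 0.161), and Gja1 and Cldn4 turned to 0.50 and 0.79 (adjusted p = 0.0461 and 0.00347).

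Against methylene chloride, the dimercaprol ears differed in 2 of 14 probe sets, both higher, where 3.05% of all were called (1.82% higher). Gjb6 remained 1.16 ± 0.28 higher (2.23-fold, adjusted p = 0.0113), with 2 of 6 ears above all methylene chloride ears. The call was lost without the dimercaprol ear of animal 11 (1.02, adjusted p = 0.0572) or 12 (1.03, adjusted p = 0.0809) and with the block (1.05, adjusted p = 0.524). The other was Gja1 probe set 1438650_x_at (0.57, adjusted p = 0.0476), which lost its call in some fits without 1 ear. Gjb2 was at 0.49 ± 0.22 (adjusted p = 0.24), Gjb5 at -0.07 ± 0.22, Cldn1 at 0.05 ± 0.13 and Ocln at 0.01 ± 0.14, none of them past the threshold.

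Other junction genes also moved between dimercaprol and mustard ears, where 26.8% of all array A and 16.5% of all array B probe sets were called. Of the 11 other claudins Cldn23 (1.65, adjusted p = 0.000154) and Cldn8 (1.38, adjusted p = 0.00145) were higher and Cldn2 lower (-0.53, adjusted p = 0.0176). Of the 22 scaffold and membrane genes 6 were higher, among them Cgn (1.07, adjusted p = 0.000281) and Marveld2 (0.71, adjusted p = 0.00104), and Crb3 was lower. St14 (-0.56, adjusted p = 8.77e-05) and Cdh3 (-0.53, adjusted p = 0.00513) were lower. Of the 5 measured connexins and pannexins Gjc1 was higher (0.80, adjusted p = 0.0127). All 5 wound keratinocyte markers were lower, with a level of 9.97 to 12.6.

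In ears given octylhomovanillamide before mustard, Gjb5, Cldn1 and Ocln were higher and Gjb2 lower than with mustard alone, 3 and 1 of 14 probe sets, where 17.1% of all were called (10.5% higher and 6.61% lower). The median difference was -0.02 against 0.01 for all. With the animal as a block, or with the Gapdh ratio as a covariate, limma called 0 of these (2 and 4 of 15 at an unadjusted p under 0.05), and without the mustard ears of animals 5 and 37 only Gjb5 (1.39, adjusted p = 0.0488). The shares of all probe sets called in these fits are not given, so the loss is not shown to be particular to these genes. Without scaling 10 probe sets over both arrays were higher and none lower. The median of all array A probe sets then moved by 0.63 and the share of higher ones among all called from 61.3% to 99.6%, Gjb2 was no longer called (-0.57, adjusted p = 0.0952) and Cldn4 turned to 0.66 (adjusted p = 0.0219). These mustard ears are the same 5 as above, so the comparisons of the drugs with mustard share them.

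Gjb5 gave 1174.5, 1626, 972, 2101 and 1375 in the ears of animals 27, 28, 29, 30 and 33, all above the mustard ears (1.55 ± 0.30 or 2.93-fold, adjusted p = 0.0011; 0.92 with the block, adjusted p = 0.246). Gjb2 gave 2011, 1167, 3942, 1720.2 and 1146 in the same ears, which overlapped the mustard ears through animals 27, 29 and 30 (-1.31 ± 0.30, adjusted p = 0.00319; -1.19 with the block, adjusted p = 0.233). The ear of animal 29 was thus the highest of the 5 for Gjb2 and the lowest for Gjb5. Ocln gave 714, 814, 663, 813 and 599, with 4 of 5 above every mustard ear (0.85 ± 0.19, adjusted p = 0.00268; 0.56 with the block, adjusted p = 0.346). Cldn1 gave 1157, 1952, 1306, 1664 and 1299, with 4 of 5 above every mustard ear (0.55 ± 0.18, adjusted p = 0.0337; 0.27 with the block, adjusted p = 0.612), and the call was lost without any 1 of the mustard ears 3, 5 or 37 or the octylhomovanillamide ears 28 or 30 (0.36 without mustard ear 37, adjusted p = 0.191). The other kept probe sets of Cldn1 were not called. Mean log2 levels of 1450014_at were 9.61 against 9.01 in mustard ears, and those of the dim 1438851_x_at 6.73 against 6.80.

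Gjb6 did not pass the threshold (-0.92 ± 0.38, adjusted p = 0.0857). Its ears gave 723.5, 282, 952, 764 and 270.4, and 2 of 5 lay below every mustard ear. Without the mustard ear of animal 36, Gjb6 (-1.29, adjusted p = 0.00884) and Gja1 (-0.44, adjusted p = 0.0289) were called and the count rose from 4 to 7. Gjb6 was also called without the octylhomovanillamide ear of animal 29 (-1.13, adjusted p = 0.0426). Gja1 with all ears was at -0.34 ± 0.15 (adjusted p = 0.118) and Cldn4 at -0.05 ± 0.18 (adjusted p = 0.868). On array B, where 9.54% of all probe sets were called, Ocln was at 0.22 ± 0.16 (adjusted p = 0.426).

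Against methylene chloride, the octylhomovanillamide ears differed in 1 of 14 probe sets, where 2.76% of all were called (1.82% higher). It was again Gjb6, 1.60 ± 0.30 higher (3.03-fold, adjusted p = 0.000581), with 3 of 5 ears above all methylene chloride ears, and the call was lost with the block (adjusted p = 0.132). Gjb2 missed the threshold at 0.78 ± 0.24 (adjusted p = 0.062) and passed it without the octylhomovanillamide ears of animal 28 or 33 or mustard ear 36 (adjusted p = 0.0397, 0.0274 and 0.0209). Among other junction genes, Cldn23 (1.24, adjusted p = 0.00773), Cldn8 (1.15, adjusted p = 0.0168), Cgn (0.80, adjusted p = 0.0136) and Marveld2 (0.73, adjusted p = 0.00347) were higher than with mustard alone, and Magi3 (-0.96, adjusted p = 0.0159), St14 (-0.64, adjusted p = 0.000324) and Cldn2 (-0.59, adjusted p = 0.0191) lower. Of the 5 wound keratinocyte markers 3 were lower than with mustard alone, with a level of 11.1 to 13.1. Of all probe sets, 17.1% on array A and 9.54% on array B were called in that comparison.

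Indomethacin before mustard left Gjb2 and Gjb6 high. Against mustard alone, 3 of 14 probe sets were called, all higher and all of Cldn1 and Ocln, where 1.8% of all array A probe sets were called (1.15% higher). The median difference was 0.25 against -0.01 for all. With the animal as a block, without the mustard ears of animals 5 and 37, or with the Gapdh ratio as a covariate, limma called 0 (2, 3 and 4 of 15 at an unadjusted p under 0.05). Shares of all probe sets called are not given for these fits either, and calls may be fewer over the whole array.

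Gjb2 gave 2936 to 6972 (median 4726) in the 6 indomethacin ears, inside the mustard range, with a difference of 0.13 ± 0.29 (95% interval -0.46 to 0.71, adjusted p = 0.846). Gjb6 gave 767 to 2246 (median 1484), and its interval ran from -0.21 to 1.26 (0.53 ± 0.36, adjusted p = 0.438). Neither interval shows that the groups are alike, and without scaling, which moved the median of all array A probe sets by 0.45 and the share of higher ones among all called from 63.8% to 99.9%, Gjb6 was called higher (1.04, adjusted p = 0.019). Gjb5 gave 388 to 1386 (median 965), with 4 of 6 ears above every mustard ear (0.80 ± 0.29, adjusted p = 0.111), and was called without indomethacin ear 16 (1.01, adjusted p = 0.0441) or mustard ear 36 (0.99, adjusted p = 0.0337).

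Cldn1 gave 1322 to 1808 (median 1607), with no overlap with the mustard ears (0.67 ± 0.18, adjusted p = 0.0415; 0.13 with the block, adjusted p = 0.97), and its probe set 1450014_at was 0.89 ± 0.21 higher (adjusted p = 0.0356). Ocln gave 428 to 872 (median 756), with 5 of 6 ears above every mustard ear (0.83 ± 0.18, adjusted p = 0.0278; 0.42 with the block, adjusted p = 0.862). The call of Cldn1 was lost without any of the mustard ears 3, 5 or 37 or the indomethacin ears 17, 18, 19 or 21, and that of Ocln without any of the mustard ears 5 or 37 or the indomethacin ears 17 or 19. On array B, where 3.16% of all probe sets were called, Ocln gave 1079 to 1220 and was at 0.20 ± 0.15 (adjusted p = 0.505). Gja1 (-0.10 ± 0.14, adjusted p = 0.75) and Cldn4 (0.36 ± 0.17, adjusted p = 0.238) did not pass the test. Of other junction genes Prss8 (0.70, adjusted p = 0.025), Grhl3 (0.70, adjusted p = 0.0235) and Cldn12 (0.51, adjusted p = 0.0323) were higher, and of the connexin, scaffold and adherens genes limma called 0 (2, 4 and 3 at an unadjusted p under 0.05). Of the 5 wound keratinocyte markers limma called 0 (1 unadjusted), and their level was 12.6 to 13.7. Of all probe sets, 1.8% on array A and 3.16% on array B were called in this comparison.

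Against methylene chloride, the indomethacin ears differed in 9 of 14 probe sets, 8 higher and 1 lower, where 35.9% of all were called (16.3% higher and 19.6% lower). Gjb2 was 2.22 ± 0.22 higher (4.66-fold, adjusted p = 1.68e-10) and Gjb6 3.05 ± 0.28 (8.28-fold, adjusted p = 1.84e-11), and in both all 6 ears lay above all 21 methylene chloride ears. Gja1 rose by 0.49 ± 0.11 (adjusted p = 0.000416), with 5 of its 6 probe sets called. The call of its lead probe set was lost in 1 of 11 alternative fits (limma adjusted p = 0.109). Cldn4 rose here (0.62 ± 0.13, adjusted p = 0.000216; 0.39 with the block, adjusted p = 0.123), and its ears gave 1308 to 2266 (median 1905). Gjb5 fell by 1.13 ± 0.22 on the log2 scale (adjusted p = 6.74e-05). Cldn1 (-0.19 ± 0.13, adjusted p = 0.299) and Ocln (-0.26 ± 0.14, adjusted p = 0.141) did not pass the test. On array B, Ocln was not called against methylene chloride in any drug group: it was at -0.09 ± 0.12 with dimercaprol, -0.29 ± 0.12 with indomethacin and -0.27 ± 0.13 with octylhomovanillamide (adjusted p = 0.896, 0.111 and 0.543), where 0.729%, 12.7% and 0.538% of all array B probe sets were called.

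**Figure D4:**
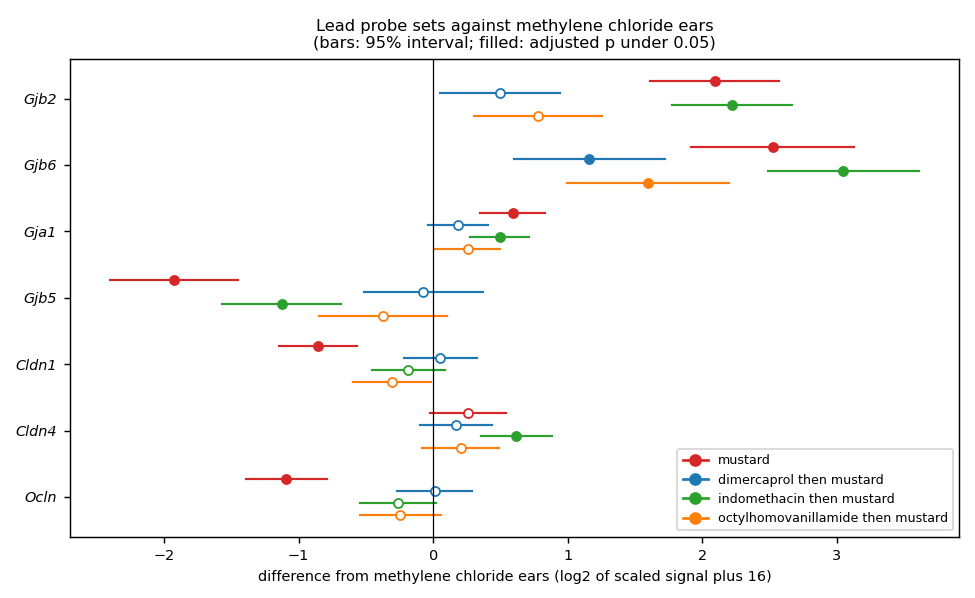
Difference of 4 treatment groups from methylene chloride ears (log2 of scaled signal plus 16, with 95% intervals) for the lead probe sets of 7 genes, filled where the adjusted p is under 0.05. Mustard and indomethacin before mustard lie far right for Gjb2 and Gjb6 (2.09 to 3.05), and only Gjb6 is filled in all 4 groups.

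The pretreatments were also compared with each other at the doses used, which differ, over 3 pairs of groups. Dimercaprol ears differed from indomethacin ears in 3 of 14 probe sets, where 10.5% of all were called (6.06% higher and 4.45% lower). Gjb2 was 3.31-fold lower in dimercaprol ears (-1.73 ± 0.28, adjusted p = 0.000167) and Gjb6 3.71-fold lower (-1.89 ± 0.35, adjusted p = 0.000699), both without overlap, while Gjb5 was higher (1.05 ± 0.27, adjusted p = 0.0106; 0.84 without indomethacin ear 16, adjusted p = 0.0597). Octylhomovanillamide ears were lower than indomethacin ears in Gjb2 (-1.44 ± 0.29, adjusted p = 0.0166) and Gjb6 (-1.45 ± 0.36, adjusted p = 0.0324), where 2.07% of all were called (0.896% lower). Both were lost without any 1 of the indomethacin ears 16 or 22 or the octylhomovanillamide ears 28 or 33, and that of Gjb6 also without indomethacin ear 19 (adjusted p up to 0.147). All 5 calls were lost with the animal as a block, where the adjusted p ran from 0.0841 for Gjb5 to 0.578 for Gjb6 in octylhomovanillamide ears. Dimercaprol and octylhomovanillamide ears differed in 0 of 15953 array A probe sets (limma, 332 at an unadjusted p under 0.05, 1 of them a junction member), with Gjb2 at -0.28 (95% interval -0.87 to 0.30) and Gjb6 at -0.44 (95% interval -1.17 to 0.30).

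In the separately numbered animals without mustard, neither a drug against ethanol nor ethanol against naive gave a call for any probe set. Against ethanol ears, 0 of 15953 probe sets were called by limma for dimercaprol, indomethacin or octylhomovanillamide, with 773, 1117 and 996 at an unadjusted p under 0.05, of which 1, 3 and 2 were among the 14 member probe sets. Ethanol against naive ears also gave 0, with 501 unadjusted, 4 of them members. Gjb2 gave 1126 to 1939 in ethanol ears, 1519 to 1975 with dimercaprol, 698 to 1655 with indomethacin and 874 to 2383 with octylhomovanillamide, and the groups overlapped. Gjb5 gave 1961 to 2117 in ethanol ears, 1535 to 2468 with dimercaprol, 1497 to 2367 with octylhomovanillamide and 1375 to 1937 with indomethacin, where all 4 ears lay below the 3 ethanol ears (-0.29 ± 0.17, adjusted p = 0.791). The share of all probe sets without overlap was not computed for these small groups. Indomethacin and ethanol ears did not overlap in 4 of 14 probe sets, none of which was called. Besides Gjb5 they were Cldn4 (1686 to 1793 against 1392 to 1545), Gja1 probe set 1438945_x_at (1117 to 1369 against 1420 to 2030) and Cldn1 probe set 1438851_x_at (179 to 245 against 94.5 to 175). Dimercaprol and ethanol ears did not overlap in 1 probe set, that of Cldn4, octylhomovanillamide and ethanol ears in 1, the lead of Cldn1, and ethanol and naive animals in 3, all of Gja1. Gja1 gave 2856 to 3025 with ethanol, 1979 to 2989 with indomethacin and 3476 to 4420 in naive animals, and ethanol ears were at -0.40 ± 0.14 against naive (adjusted p = 0.999).

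Methylene chloride ears differed from naive ears in 2 of 14 probe sets, where 21.5% of all array A probe sets were called (14.1% lower). Gjb6 was lower in methylene chloride ears (-0.96 ± 0.35, adjusted p = 0.0409), at a median of 152 against 342 over 3 naive animals, and Cldn1 probe set 1450014_at was lower too (-0.53 ± 0.20, adjusted p = 0.0467). The call of Gjb6 was lost without naive animal 502 (adjusted p = 0.128) or 503 (adjusted p = 0.272), and the series of animals and the treatment cannot be told apart here. Cldn7, below the filter throughout, had mean scaled signals between 39.5 and 78.7 in all groups.

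Among the 21 methylene chloride ears the genes varied together in part. Of 21 pairs, 9 had a Pearson r past the threshold (permutation test with 100000 resamples, 2-sided, adjusted over the 21 pairs), all of them positive. Gjb5 and Ocln gave r = 0.83 (permutation p = 1e-05, the smallest these resamples can give, adjusted 0.00021) and Spearman rho = 0.90. Without the 2 ears farthest from the median of the gene named first in a pair, here Gjb5, r was 0.85. Cldn4 and Ocln gave r = 0.78 (adjusted permutation p = 0.000315, rho = 0.68, 0.63 without 2 ears), and Gjb5 and Cldn4 r = 0.76 (adjusted permutation p = 0.00077, rho = 0.55, 0.52 without 2 ears). Gjb5, Cldn1, Cldn4 and Ocln all paired with one another past the threshold, Gjb6 with Gjb5, Cldn4 and Ocln, and Gjb2 and Gja1 with none. Without 2 ears, r moved from 0.50 to 0.38 for Gjb5 and Gjb6. It moved from 0.61 to 0.70 for Gjb6 and Cldn4, and from 0.52 to 0.65 for Gjb6 and Ocln. Gjb2 and Gjb6, which moved together with mustard, gave r = 0.32 (adjusted permutation p = 0.294, rho = 0.16). All values come from single biopsies scaled to 1 array mean each, and brightness and tissue content were not tested as a shared source. The share of pairs of other genes with such an r was not computed. The pairs are thus not shown to be particular to junction genes.

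**Figure D5:**
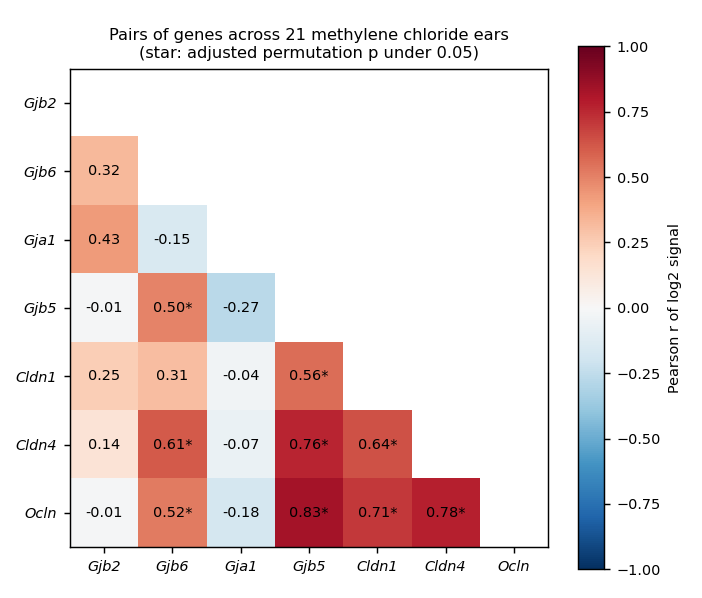
Pearson r of log2 signals for each pair of 7 lead probe sets over 21 methylene chloride ears, with a colour scale from -1 to 1 and a star where the adjusted permutation p is under 0.05. The stars fall on Gjb5, Cldn1, Cldn4, Ocln and in part Gjb6 (0.50 to 0.83), and the columns of Gjb2 and Gja1 have none.

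Over all 64 ears of array A, the genes whose log2 signal was most like each member were listed, as a description over ears that share the treatments. For Gjb2 they were Sprr2f (r = 0.92), the protease inhibitor gene Slpi (0.91) and the wound keratin gene Krt6a (0.91), and for Gjb6 the cornified envelope genes Lce3a (0.92) and Sprr2h (0.91), and Teddm3 (0.91). For Gjb5 they were Serpina12, Slc40a1, which encodes the iron exporter ferroportin, and Rab3d, all at 0.92. Ocln was nearest Itprid2 (0.87), Trim2 (0.85) and Scel (0.84), and Cldn1 nearest Trim29 (0.82), Trim2 (0.81) and Pof1b (0.81). Cldn4 was nearest Il1f8 (0.77), Aloxe3 (0.76) and Elovl1 (0.76), and Gja1 nearest Txnl1 (0.89), Sub1 (0.87) and Nupl1 (0.86).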

How the data were processed

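Total RNA (10 µg) of each biopsy was hybridised to Affymetrix mouse arrays, and the deposited values are intensity signals that the authors computed with MAS5, per the submitters' processing notes. Its version and settings are not given in the sources used here. From these signals, arrays were brought to a common trimmed mean of 500 (2% cut at each end, control probe sets left out) before 16 was added and log2 taken. Scaling makes each difference relative to the bulk of probe sets. Probe sets with a mean of at least 100 were kept (15953 on array A, 17287 on array B), and arrays A and B were fitted apart with limma 3.58.1 under R 4.3.3 (lmFit, and eBayes with its trend option; files were read by the package data.table, version 1.17.8). Tests were 2-sided, with Benjamini-Hochberg adjustment across the probe sets kept on an array, and the method was tested on simulated data. All mustard series ears entered 1 fit and animals without mustard another, with naive ears averaged per animal, and all array A ears served for methylene chloride against naive. The brightest probe set kept, by mean log2 signal, leads each gene. The members, the other junction genes and the marker lists were chosen with earlier results of these data known. Other junction genes are named by the 3 largest called rises and falls in each comparison, plus further list members picked after their values were seen. This rule leaves out larger changes that did not pass the threshold. Same-numbered ears come from 1 animal, and the deviations of 17 such pairs from their group means correlated at 0.164 on average (-0.0943 to 0.439), against -0.0269 for other ears. P-values of the main fits set a difference against the spread of ears within groups, pooled over the groups of a fit. Apart from the averaged naive ears, the ears of an animal entered these fits as independent. The number of arrays limits the precision. Gene symbols came from GEO's platform annotation, where 20380 array A probe sets have 1 symbol, 691 several and 1555 none, and on array B 14661, 245 and 7605. Motifs were searched with Python 3.11.15, and figures drawn with matplotlib 3.10.9. The alternatives tried were other scalings, pseudocounts, filters, covariates, blocks and left-out ears.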

Additional observations from a re-analysis of the deposited data

Results flagged for a closer look

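In 3 of 49 combinations of a gene and a group of 4 to 10 ears, 1 ear stood far from the others, where chance alone gives about 1 in 20. They were Gja1 after octylhomovanillamide and mustard in animal 33 (a signal of 4463), Cldn4 after octylhomovanillamide without mustard in animal 517 (2474) and Ocln after indomethacin and mustard in animal 22 (428.1).

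Ears with different pretreatments before mustard were compared directly, and 5 of these tests of lead probe sets were called. They compare signals of right ears, not the difference of each ear from its own left ear. On the log2 scale, dimercaprol ears against indomethacin ears gave -1.727 for Gjb2, 1.052 for Gjb5 and -1.891 for Gjb6, with limma adjusted p of 0.000167, 0.0106 and 0.000699. Octylhomovanillamide ears against indomethacin ears gave -1.442 for Gjb2 and -1.452 for Gjb6, with limma adjusted p of 0.0166 and 0.0324. The Gjb5 difference missed the threshold without the indomethacin ear of animal 16 (0.84, adjusted p = 0.0597), the Gjb2 and Gjb6 differences between octylhomovanillamide and indomethacin ears missed it in 4 and 5 fits without 1 ear (adjusted p up to 0.106 and 0.147) and without rescaling (-1.25 and -1.21, adjusted p = 0.125 and 0.13), and all 5 missed it with the animal as a replicate block.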

How the results depend on the processing

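Of 31 called differences of lead probe sets, 9 kept direction and call under every alternative run. Counts below are member probe sets called on both arrays, which were 11 for mustard against methylene chloride, 7, 3 and 4 for dimercaprol, indomethacin and octylhomovanillamide against mustard, 2, 9 and 1 for the same drugs against methylene chloride, 3 for dimercaprol and 2 for octylhomovanillamide against indomethacin, and 2 for methylene chloride against naive. Without rescaling the counts were 9 for mustard against methylene chloride (2 higher and 7 lower, in place of 6 and 5), 14 (13 higher), 9 (all higher) and 10 (all higher) against mustard, 1 (dimercaprol) and 4 (indomethacin) against methylene chloride, 0 for octylhomovanillamide against indomethacin and 0 for methylene chloride against naive (limma, 3 and 1 at an unadjusted p under 0.05), and the share of higher probe sets among all called on array A moved from 59.8% to 98.7% (dimercaprol), 45.3% to 31.9% (indomethacin) and 65.8% to 96.2% (octylhomovanillamide) against methylene chloride, 57.7% to 95.4% for dimercaprol against indomethacin and 34.4% to 94.7% for methylene chloride against naive. The count for dimercaprol against methylene chloride was 1 after quantile normalization, without the filter, without the trend and without mustard ears 5 and 37. Methylene chloride against naive gave 1 with a pseudocount of 64, without the filter and with a minimum of 300. With the Gapdh ratio as a covariate, mustard against methylene chloride gave 7, indomethacin and octylhomovanillamide against mustard 0 each (4 each unadjusted) and octylhomovanillamide against methylene chloride 2. Without mustard ears 5 and 37, dimercaprol, indomethacin and octylhomovanillamide against mustard gave 4, 0 (3 unadjusted) and 1. With the animal as a replicate block (17 pairs), these gave 1, 0 and 0 (2 and 2 unadjusted for the latter), dimercaprol and octylhomovanillamide 0 against methylene chloride (2 and 9) and 0 against indomethacin (9 and 2), and the block changed no call of a lead probe set other than those given with it above. In the animals without mustard a random replicate block gave 0 calls, as did the fit without it. The shares of all probe sets called in these alternative fits, or without single ears, are not given. A lower member count can thus go with fewer calls over the whole array.

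Leaving out single ears gave 0 to 2 calls for dimercaprol against methylene chloride, 0 to 4 for indomethacin against mustard, 0 to 1 for methylene chloride against naive, 0 to 2 for octylhomovanillamide against indomethacin, 1 to 2 for octylhomovanillamide against methylene chloride and 3 to 7 for it against mustard.

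Changes of sign fell mostly on differences that had not been called. Without rescaling, Cldn4 gave 0.7877 (dimercaprol) and 0.6571 (octylhomovanillamide) against mustard and -0.3553 for mustard against methylene chloride, Gja1 gave 0.5025, 0.4639 and 0.4033 for dimercaprol, indomethacin and octylhomovanillamide against mustard and -0.0446 for mustard against methylene chloride, and Gjb5 gave 0.1979 for dimercaprol against methylene chloride. Gja1 for indomethacin against mustard was also 0.0306 after quantile normalization, 0.1072 with the Gapdh ratio, 0.0719 without ears 5 and 37, 0.095 with the replicate block and 0.1118 as the mean of its probe sets. The block also gave -0.1626 for Cldn4 in indomethacin against mustard and 0.2408 for Gjb5 in dimercaprol against methylene chloride, where Cldn1 was -0.0029 as the mean of its probe sets and Ocln -0.005 after quantile normalization. Without single ears, Cldn4 ran from -0.2046 to 0.0368 (dimercaprol) and -0.1697 to 0.0717 (octylhomovanillamide) against mustard, Gjb2 from -0.2347 to 0.3204 for indomethacin against mustard, and for dimercaprol against methylene chloride Gjb5 from -0.156 to 0.0168 and Ocln from -0.0281 to 0.0709. The cause of these changes was not tested. Every comparison of a drug with mustard shares 5 mustard ears, of which the ears of animals 5 and 37 had trimmed means of 85.7 and 66.3 on array A before scaling. Cldn7 and 1 probe set of Cldn1 were below the signal filter, so no difference could be tested for them.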
